A study of Mus musculus with 6 samples.

Results

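The neuromuscular junction is the synapse between a motor nerve and a muscle fibre, and 10 genes of its postsynaptic machinery and of the nerve signal that organises it were followed between fetal and embryonic muscle progenitors. They are Chrna1, Chrnb1, Chrng, Chrnd and Chrne, which encode the muscle subunits of the nicotinic acetylcholine receptor, together with Agrn, Lrp4, Musk, Dok7 and Rapsn, which encode the agrin pathway and the receptor scaffold. Members were taken as the probe sets whose annotated symbol is one of these names. This gave 14 probe sets of the 34909 that carry a single symbol, and 10 of the 18182 genes measured. The brightest probe set by its 6-array mean stands for each gene, and 7 of the 10 genes have a single probe set.

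The cells were GFP-positive cells sorted from limbs of mice with the Tg:Pax7-nGFP transgene on a C57BL/6:DBA2 background, in which the regulatory sequence of Pax7, the transcription factor of muscle stem and progenitor cells, drives a nuclear GFP. The E17.5 group (fetal limbs) and the E12.5 group (embryonic limb buds) each comprise 3 Affymetrix arrays, named replicates A, B and C. Both groups carry the transgene and no other treatment or allele is labelled, the gate selected GFP protein and not Pax7 RNA, and the number of embryos behind a sample is not given in the sources used here. The design holds a single comparison, E17.5 against E12.5, which asks how progenitors of the fetal and the embryonic phase of muscle formation differ.

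In muscle, agrin released by the nerve binds LRP4, which activates the receptor kinase MuSK. The cytoplasmic adaptor Dok-7 is needed for full MuSK activity, and rapsyn then clusters acetylcholine receptors beneath the nerve ending. The receptor is a pentamer of alpha, beta, delta and gamma subunits in fetal muscle, and around birth the epsilon subunit takes the place of gamma. Muscle transcription factors of the MyoD family switch on receptor genes through E-boxes as myoblasts differentiate, before any nerve contact.

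Values are log2 signals after GCRMA, a background correction and normalization for Affymetrix arrays, so a difference of 1 is a 2-fold change. Differences are E17.5 minus E12.5 with the standard error (SE) of limma, and the Benjamini-Hochberg adjustment of p-values covers all 18182 genes, a gene being called under 0.05. Array medians lay between 3.38 and 3.47, and 42.8% of genes had a mean under 4, a range in which GCRMA holds little specific signal. The sorted population carried its labelled type: Pax7 averaged 12.37 ± 0.15 at E17.5 and 11.46 ± 0.28 at E12.5 (SD, n = 3 each), and 6 of 7 progenitor markers were above 4 on all 6 arrays. The other, Itga7, was in the background range at E12.5 (9.18, 9.16 and 8.84 at E17.5, against 2.19, 2.17 and 2.31 at E12.5). E17.5 replicates A and B stood apart. Among genes averaging 6 or more, the SD of their difference was 0.152, against 0.412 to 0.551 for the other same-age pairs, so they may not be independent samples. A fit with these 2 arrays averaged and counted as 1 sample, called the averaged fit, is therefore given beside the members' calls and the lists' counts.

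Of the 10 neuromuscular junction genes 5 rose at E17.5 (Chrna1, Chrnb1, Lrp4, Musk and Dok7), none fell and 5 did not pass the test (Chrng, Chrnd, Chrne, Agrn and Rapsn). Over all genes 8.21% were called higher and 8.73% lower, 16.9% together. Among genes with a mean of at least 4, which 8 of the members reach, 13.4% were called higher. The averaged fit called 4 members higher and 0 lower, against 5.62% and 4.54% of all genes, and Lrp4 was the call it did not keep. The median difference was 0.92 over the members and 0.003 over all genes. In limma 1 member (Agrn) was lower at an unadjusted p under 0.05, and a fit with array weights (4.97, 3.24 and 0.14 for A, B and C at E17.5, and 0.386, 0.239 and 4.81 at E12.5) called 2 lower (Agrn and Rapsn). The members were chosen with earlier results of these data known, so their count is a description. In 6 of the 10 genes every E17.5 array lay above every E12.5 array and in 1 every E17.5 array lay below, against 14.2% and 17.2% of all genes.

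**Figure D1:**
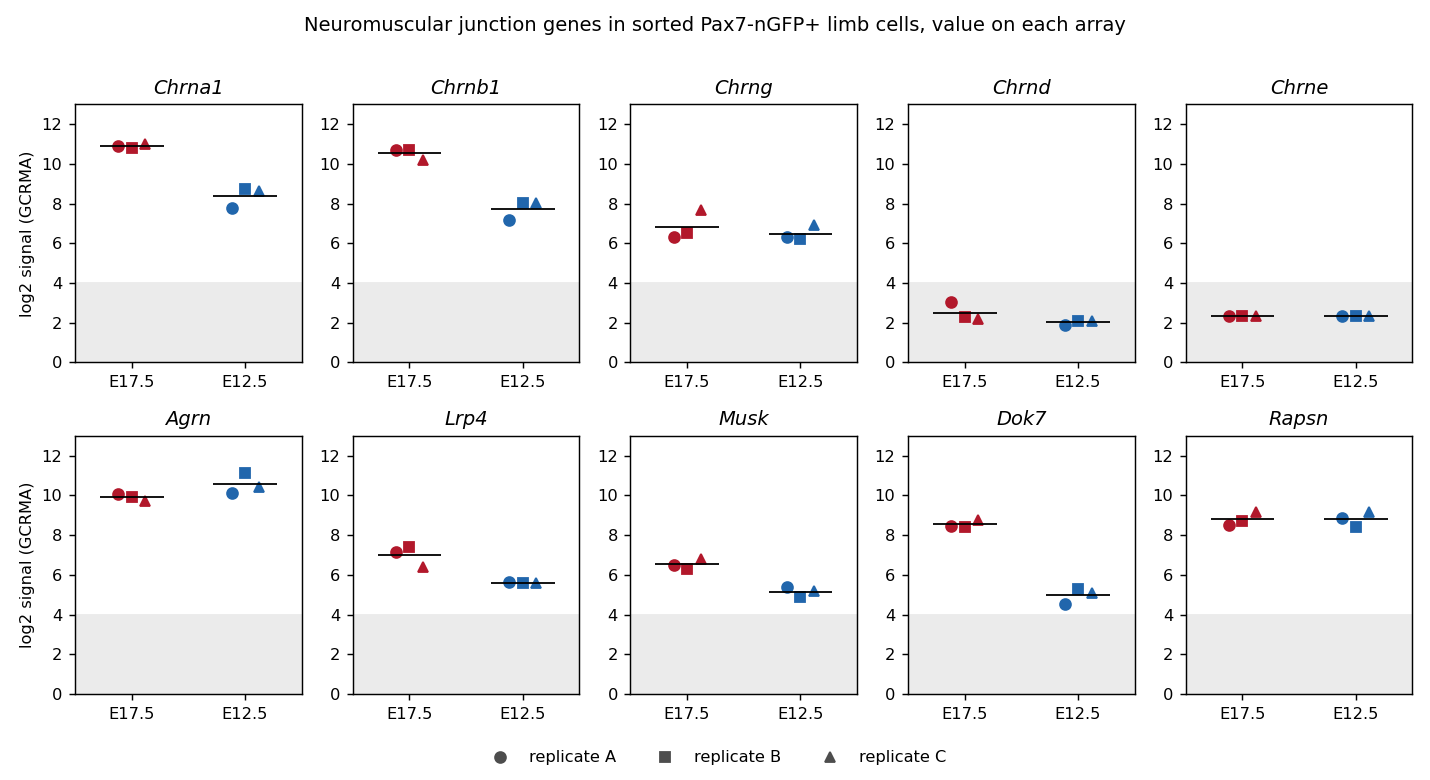
Log2 signal of each neuromuscular junction gene on every array, E17.5 at left and E12.5 at right in each panel. Symbols give replicates A, B and C, the horizontal line is the mean of 3 arrays, and the grey band marks values under 4. Chrna1, Chrnb1, Lrp4, Musk and Dok7 are separated by age, while Chrnd and Chrne lie in the grey band at both ages.

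Of the 5 receptor subunit genes Chrna1 and Chrnb1 rose, Chrng was not called, and Chrnd and Chrne were in the background range, where a change cannot be measured. Chrna1 encodes the alpha subunit, which carries most of the acetylcholine binding site, and lies on chr2:73563281-73580338 (GRCm38.p6, as for all positions here). It stood at 10.91, 10.80 and 11.02 on the E17.5 arrays A, B and C, against 7.78, 8.74 and 8.62 on the E12.5 arrays. The lowest fetal array was above the highest embryonic array, and the fetal arrays were the tighter group. The difference was 2.53 (SE 0.26, adjusted p = 0.00108), a 5.78-fold rise with a 95% confidence interval of 3.78 to 8.82. It was 2.56 in the averaged fit (adjusted p = 0.00562).

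Chrnb1, the beta subunit gene (chr11:69784036-69795966), showed a rise of similar size. Its values were 10.72, 10.71 and 10.18 at E17.5, against 7.20, 8.04 and 8.01 at E12.5. As for Chrna1, E12.5 replicate A was the lowest array and the ages did not overlap. The difference was 2.79 (SE 0.27, adjusted p = 0.000941), or 6.90-fold (95% confidence interval 4.39 to 10.8), and 2.70 in the averaged fit (adjusted p = 0.00548). Leaving out any single array kept Chrna1 between 2.23 and 2.71 and Chrnb1 between 2.51 and 2.96, with adjusted p of at most 0.00607 and 0.00626.

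Chrng, the gene of the fetal gamma subunit (chr1:87205811-87211835), was measured above background at both ages but was not called. It stood at 6.31, 6.54 and 7.66 at E17.5, against 6.30, 6.21 and 6.90 at E12.5, and the ages overlapped. The difference was 0.37 (SE 0.41, adjusted p = 0.711), with a 95% confidence interval of -0.60 to 1.34 that still allows a 2.53-fold rise. Its sign rests on E17.5 replicate C: without that array it was -0.04 (adjusted p = 0.953), and in the averaged fit 0.57 (adjusted p = 0.589). With array weights, which rest mainly on E17.5 A and B and on E12.5 C, it was -0.41 (adjusted p = 0.113). The other 2 probe sets of Chrng averaged 2.69 and 2.12 over the 6 arrays, within the background range.

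Chrnd, the delta subunit gene, lies next to Chrng on chromosome 1 (chr1:87190597-87200070), with 5740 bases between the genes. Its single probe set gave 3.03, 2.28 and 2.19 at E17.5, against 1.91, 2.08 and 2.09 at E12.5. All of these values are in the background range, so that although the ages do not overlap the probe set holds no clear signal. The difference of 0.47 (SE 0.21, adjusted p = 0.205) vanished with values under 4 raised to 4.

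Chrne, the gene of the adult epsilon subunit (chr11:70614883-70619213), also stayed in the background range. Its values were 2.34, 2.33 and 2.35 at E17.5, against 2.35, 2.32 and 2.35 at E12.5, and the difference was 0.00 (SE 0.02, adjusted p = 1). The narrow interval describes array background, and a low level of the RNA was not detectable with this probe set. The exchange of gamma for epsilon was therefore not visible in these data. The planned test of unequal change in Chrng and Chrne gave 0.37 (exact permutation test over arrays, two-sided, p = 0.5), where 3 arrays against 3 cannot go below 0.1. With Chrne at background on every array, this test repeats the Chrng difference and cannot compare the changes of the 2 subunits.

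Unequal change within the receptor was also tested for the subunits above background, a choice made after the values were seen. The change of Chrna1 exceeded that of Chrng by 2.16, and that of Chrnb1 exceeded it by 2.42, each with an exact two-sided permutation p = 0.1, the smallest this design allows (0.12 adjusted over the 6 pairs tested). A level of one probe set cannot be set against that of another, so these values compare changes only.

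The receptor promoters are shown because several subunit genes are known to be controlled through E-boxes and Chrne also through an N-box. RefSeq promoter windows (GRCm38.p6) matched 7 of the 10 genes, Chrnd, Lrp4 and Rapsn being the others, and the 250 bases before each annotated start were searched. Motifs were the E-box CANNTG, which reads the same on both strands and is bound by MyoD-family factors, its GC-core form CAGCTG, which is counted within it, and the N-box CCGGAA on either strand, the element known from synapse-specific transcription of receptor genes. Below, the sequences run 5′ to 3′ on the gene's strand and stop at the outermost annotated start of the gene, and capitals mark E-boxes and, in Chrne, the N-box. They cover chr2:73580339-73580588 on the minus strand (Chrna1), chr11:69795967-69796187 on the minus strand (Chrnb1), chr1:87205561-87205810 on the plus strand (Chrng) and chr11:70619214-70619444 on the minus strand (Chrne).
Chrna1: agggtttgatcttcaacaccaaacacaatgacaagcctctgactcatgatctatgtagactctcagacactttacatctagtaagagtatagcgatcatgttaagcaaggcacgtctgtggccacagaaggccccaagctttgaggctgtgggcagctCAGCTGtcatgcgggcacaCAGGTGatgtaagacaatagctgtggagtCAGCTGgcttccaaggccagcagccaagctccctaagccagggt
Chrnb1: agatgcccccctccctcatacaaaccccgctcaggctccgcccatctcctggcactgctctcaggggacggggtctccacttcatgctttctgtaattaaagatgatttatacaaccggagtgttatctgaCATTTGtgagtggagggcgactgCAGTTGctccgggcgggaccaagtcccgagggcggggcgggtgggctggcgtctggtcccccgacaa
Chrng: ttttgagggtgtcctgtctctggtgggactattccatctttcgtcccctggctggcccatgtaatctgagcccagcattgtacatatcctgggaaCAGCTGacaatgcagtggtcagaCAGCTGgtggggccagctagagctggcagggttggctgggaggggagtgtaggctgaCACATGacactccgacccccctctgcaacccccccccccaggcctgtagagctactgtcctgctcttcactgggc
Chrne: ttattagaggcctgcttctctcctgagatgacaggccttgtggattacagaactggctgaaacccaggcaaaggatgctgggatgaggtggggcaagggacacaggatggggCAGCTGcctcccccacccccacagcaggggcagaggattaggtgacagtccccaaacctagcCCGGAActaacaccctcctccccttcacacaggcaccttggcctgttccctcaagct

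Chrna1 had 3 E-boxes, whose first bases lie 92, 73 and 44 bases before the start, and the outer pair have the GC core. Chrnb1 had 3, at 119, 96 and 29 bases, none of them with the GC core, and the last of these lies in the 29 bases left off above. Chrng had 3 as well, at 155, 132 and 75 bases, the farthest 2 of them with the GC core. At least 3 E-boxes were found in 12.2% of 32851 mouse promoter windows of the same length, at least 1 in 66.2%, and at least 2 of the GC-core form in 1.26%. Chrna1, which rose, and Chrng, which was not called, thus held the same number of each form.

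Chrne had 1 E-box with the GC core at 138 bases (at least 1 in 13% of windows) and 1 N-box at 76 bases before the start. These distances count from the start of its promoter window, and the 19 bases nearest to it are left off above. The N-box was found in 12% of windows and in no other member window searched. Musk had 3 E-boxes, at 177, 100 and 68 bases, the nearest with the GC core. Of the 2 annotated starts of Dok7, 1 had a single E-box at 149 bases and the other none, and of the 2 starts of Agrn, 1 had a single E-box at 92 bases and the other none. Such a match is a description of letters and not a binding site.

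**Figure D2:**
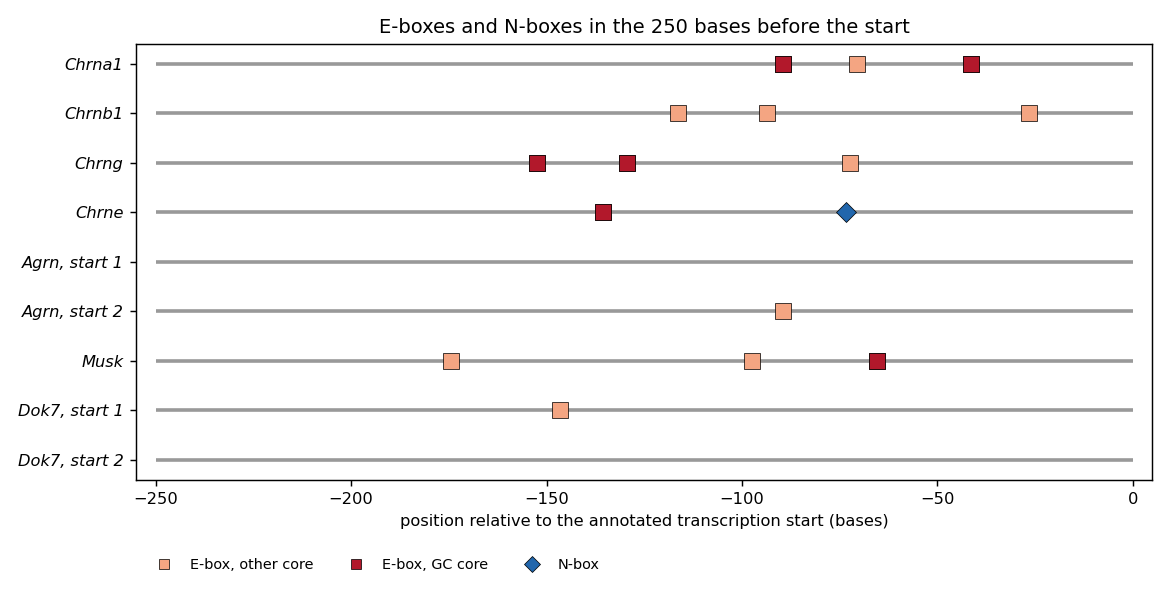
Positions of E-boxes and N-boxes in the 250 bases before each annotated start of the 7 genes with a promoter window (x axis, bases relative to the start). Squares are E-boxes, dark where the core is GC, and the diamond is the N-box, found only in Chrne among these windows. Chrna1, Chrnb1, Chrng and Musk each hold 3 E-boxes.

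In the agrin pathway the muscle-side genes Lrp4, Musk and Dok7 were called higher, Lrp4 not in the averaged fit. The ligand gene was not called. Agrn, the gene of agrin (chr4:156165290-156197533), a heparan sulfate proteoglycan made by nerve, muscle and other cells, stood at 10.06, 9.94 and 9.71 at E17.5, against 10.11, 11.13 and 10.45 at E12.5. Every fetal array was below every embryonic array, by a narrow margin for E12.5 replicate A. The difference was -0.66 (SE 0.26, adjusted p = 0.15), -0.89 (adjusted p = 0.0489) where replicate A of E12.5 was left out, and -0.38 (adjusted p = 0.251) where replicate B of E12.5 was. E12.5 replicate B, the highest array for Agrn, also had the highest mean level at that age in several marker lists. These were connective tissue (8.72, against 7.18 and 6.87 in replicates A and C) and neurons (3.26, against 2.95 and 2.86). Differentiating muscle (7.85, against 6.99 and 7.35), endothelium (4.47, against 3.46 and 3.43) and blood (5.31, against 4.79 and 4.57) were the others. It was not the highest for progenitor markers (9.14, against 9.45 and 9.63) or Schwann and neural crest markers (4.20, against 4.21 and 4.17). For connective tissue E17.5 replicates A and B stood higher (8.89 and 8.84). The part of any of these cells in the Agrn value was not tested. Whether the probe set separates the nerve splice forms of agrin, which are the active ones at the synapse, is not given in the sources used here. The other Agrn probe set was in the background range (mean 2.12).

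Lrp4, the agrin receptor gene (chr2:91457456-91513901), gave 7.14, 7.41 and 6.38 at E17.5, against 5.65, 5.58 and 5.61 at E12.5. The embryonic arrays were nearly identical, the fetal ones all higher, and E17.5 replicate C lay closest to them. The difference was 1.36 (SE 0.31, adjusted p = 0.0262), a 2.57-fold rise with a 95% confidence interval of 1.55 to 4.28. This call was fragile. Averaging E17.5 A and B ended it (1.21, adjusted p = 0.104), as did raising values under 4 to 4 (adjusted p = 0.0558) and leaving out any one of E17.5 A, E17.5 B, E12.5 A, E12.5 B and E12.5 C (adjusted p 0.0503 to 0.109), while without E17.5 replicate C it was 1.66 (adjusted p = 0.00624).

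Musk, the gene of the receptor kinase at the centre of the pathway (chr4:58285729-58377848), stood at 6.51, 6.29 and 6.79 at E17.5, against 5.37, 4.86 and 5.19 at E12.5. The ages did not overlap, and the spread within each was similar. The difference was 1.39 (SE 0.26, adjusted p = 0.0128), or 2.62-fold (95% confidence interval 1.71 to 4.02). It passed the test in the averaged fit (1.46, adjusted p = 0.0463) and missed it without E17.5 replicate A (1.40, adjusted p = 0.0569).

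Dok7, the gene of the MuSK adaptor (chr5:35056571-35087839), had the largest change of the 10. It stood at 8.48, 8.41 and 8.75 at E17.5, against 4.53, 5.28 and 5.11 at E12.5. The difference was 3.57 (SE 0.26, adjusted p = 0.000321), or 11.9-fold (95% confidence interval 7.71 to 18.4), which ranked 135 by size among the 1493 genes called higher. It was 3.62 in the averaged fit (adjusted p = 0.00268) and between 3.35 and 3.73 without any single array. The probe set used can match several transcripts. The other Dok7 probe set, which is not of that kind, gave 4.36, 3.76 and 3.80 at E17.5, against 2.55, 2.48 and 2.54 at E12.5. These values lie in the background range at E12.5 and, for replicates B and C, at E17.5. The difference of 1.45 in limma is thus not a measured size (SE 0.17, adjusted p = 0.00339 over all named probe sets).

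Rapsn, the gene of the scaffold protein that clusters the receptor (chr2:91035472-91045729), was well above background and did not pass the test. It stood at 8.53, 8.72 and 9.16 at E17.5, against 8.85, 8.39 and 9.18 at E12.5, with the ages fully interleaved. The difference was -0.0033 (SE 0.25, adjusted p = 1), and its 95% confidence interval of -0.61 to 0.60 leaves room for a change of up to 1.51-fold upward. The change of Musk exceeded that of Rapsn by 1.39 and that of Dok7 exceeded it by 3.58, and the change of Lrp4 exceeded that of Agrn by 2.02. These 3 pairs, also chosen after the values were seen, each had an exact two-sided permutation p = 0.1, the smallest possible (0.12 adjusted over the 6 pairs).

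**Figure D3:**
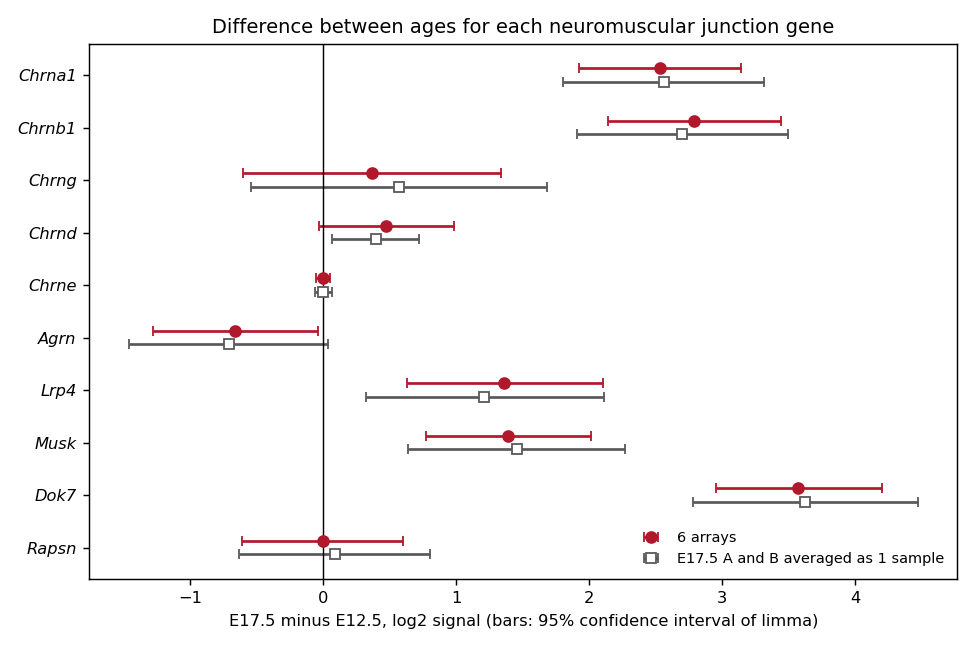
Difference between E17.5 and E12.5 for each gene (x axis, log2 signal) with the 95% confidence interval of limma. Filled circles use all 6 arrays and open squares use the fit with E17.5 A and B averaged as 1 sample. The intervals of Chrna1, Chrnb1, Lrp4, Musk and Dok7 lie above 0 in both fits before adjustment, and the largest difference is that of Dok7 (3.57).

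Further genes of the synapse came from 4 lists of its scaffold, neuregulin, matrix and assembly genes, of which 59 of 63 were measured under their own symbol. At E17.5 15 rose, 8 fell and 36 were not called, against 8.21% and 8.73% of all genes, with a median difference of 0.04. Only 11 of the 59 had a mean under 4. Among genes with a mean of at least 4, 13.4% were called higher and 13.9% lower, so the falls were near that share. The averaged fit called 6 higher and 4 lower, against 5.62% and 4.54% of all genes. These shares also apply to the counts of the lists below. Without 1 array the rises ranged from 6 to 13 and the falls from 3 to 11. The rises were 7, 6 and 7 without E17.5 A, E17.5 B and E12.5 C, and the falls were 4, 3, 5 and 5 without E17.5 A, E17.5 B, E12.5 B and E12.5 C.

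Among 29 postsynaptic scaffold and signalling genes 7 rose, 2 fell and 20 were not called. By the brightest probe set the largest rise was that of Syne1, which encodes a nuclear envelope protein linked to synaptic nuclei, at 8.51 ± 0.06 at E17.5 and 5.57 ± 0.43 at E12.5 (SD, n = 3 each, difference 2.94, SE 0.26, adjusted p = 0.00059). Dag1, the gene of the agrin- and laminin-binding receptor dystroglycan, followed with 13.15 ± 0.03 at E17.5 and 10.70 ± 0.29 at E12.5 (difference 2.44, SE 0.15, adjusted p = 0.000176). With the mean of all probe sets the order turned, at 2.76 for Dag1, 1.82 for Plec and 1.38 for Syne1. By its brightest probe set the cytolinker gene Plec rose by 1.25 (adjusted p = 0.0482; 0.0763 in the averaged fit). The falls were Apc, whose protein binds receptor clusters (-0.66), and the kinase gene Abl2 (-0.47, adjusted p = 0.0489). Neither was called with the mean of all probe sets (-0.37 and -0.20, adjusted p = 0.115 and 0.282) or in the averaged fit (adjusted p = 0.0767 and 0.16). The averaged fit called 3 rises and 0 falls in this list.

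The neuregulin axis, a nerve-to-muscle and nerve-to-glia signal, had 2 rises, 1 fall and 5 genes not called among 8 (0 rises and 1 fall in the averaged fit). Erbb3, a neuregulin receptor gene, fell to 9.87 ± 0.20 at E17.5, against 12.68 ± 0.33 at E12.5 (SD, n = 3 each, difference -2.80, SE 0.19, adjusted p = 0.000248; 0.00141 in the averaged fit). With the mean of all its probe sets the difference was -1.44. Erbb3 also marks Schwann and neural crest cells. The other 6 measured markers of those cells all had a mean under 4. Of these Mbp fell too (3.51, 3.51 and 3.14 at E17.5, against 4.79, 4.09 and 4.46 at E12.5, difference -1.06, adjusted p = 0.018; 0.0527 in the averaged fit). With values under 4 raised to 4 the Mbp difference was -0.45 (adjusted p = 0.223). The rest were not called, among them Sox10 (2.30, 2.30 and 2.36 at E17.5, against 2.38, 3.84 and 2.35 at E12.5), S100b and Foxd3. The mean level of that list, Erbb3 included, ranged from 3.52 to 3.58 at E17.5 and from 4.17 to 4.21 at E12.5, and the part of such cells in the Erbb3 value was not tested. Etv5, an ETS factor gene tied to synaptic transcription, rose by 1.54 (adjusted p = 0.018). Its adjusted p was 0.0617 in the averaged fit and 0.153 with the mean of all probe sets. Gabpa, whose protein binds the N-box, rose by 0.33 (adjusted p = 0.0357). Its adjusted p was 0.147 in the averaged fit and 0.0868 with the mean of all probe sets.

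Of 15 genes of the synaptic cleft and basal lamina 5 rose, 3 fell and 7 were not called. The averaged fit called 3 rises and 3 falls, without Bche and Lamb2 (adjusted p = 0.0643 and 0.165). The laminin alpha chain genes led the rises. Lama4 averaged 11.67 ± 0.07 at E17.5 and 8.95 ± 0.47 at E12.5 (SD, n = 3 each, difference 2.73, adjusted p = 0.000505), Lama2 rose by 2.39 (adjusted p = 0.000688) and Lama5 by 2.37 (adjusted p = 0.00105). Col25a1, a membrane collagen gene made by muscle and needed for motor innervation in mice, fell by 3.86 (adjusted p = 0.00107), and its difference was -1.94 with the mean of all probe sets. The basement membrane gene Nid2 fell by 1.93 and the synaptic collagen gene Col13a1 fell by 0.84 (adjusted p = 0.0106; 0.059 without E17.5 replicate B). The genes of acetylcholinesterase and of its collagen tail, Ache and Colq, named here after their values were seen, were in the background range at both ages (Ache 2.12 ± 0.02 at E17.5 and 2.26 ± 0.14 at E12.5, Colq 2.60 ± 0.05 at E17.5 and 2.56 ± 0.04 at E12.5, SD, n = 3 each).

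Of 7 glycosylation and assembly genes, several of which are mutated in human congenital myasthenia, 1 rose, 2 fell and 4 were not called. Rer1, which retains unassembled receptor subunits in the early secretory pathway, rose by 0.56 (adjusted p = 0.0127). Its probe set can also match other transcripts, and no probe set without that limit measured Rer1. Alg2 and Dpagt1, which act in N-glycosylation, fell by 1.03 (adjusted p = 0.019) and by 0.56 (adjusted p = 0.038). With the mean of all its probe sets Alg2 was not called (-0.52, adjusted p = 0.0711). The averaged fit called 0 of these 7 genes (adjusted p 0.0625, 0.0747 and 0.147 for Rer1, Alg2 and Dpagt1).

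**Figure D4:**
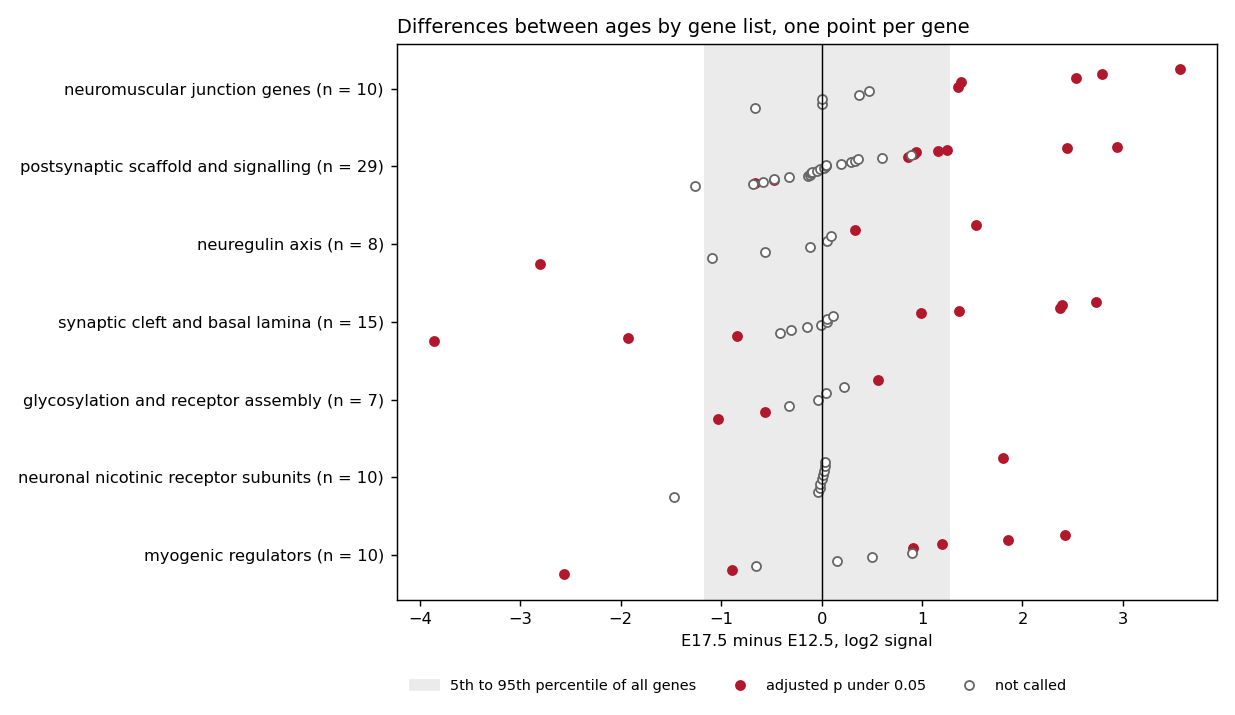
Difference between E17.5 and E12.5 (x axis, log2 signal) for every gene of the neuromuscular junction set, the 4 synaptic lists, the neuronal nicotinic subunits and the myogenic regulators, with 1 point per gene. Filled points passed an adjusted p under 0.05 and open points did not, and the grey band spans the 5th to 95th percentile of all genes (-1.16 to 1.27).

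The muscle subunits were set beside the neuronal subunits of the same receptor family. Of 10 measured neuronal subunit genes 8 had a mean under 4, and 1 was called. This was Chrna7, the gene of the alpha7 subunit, which forms receptors of a single subunit type. It stood at 8.23, 8.19 and 9.17 at E17.5, against 7.21, 6.44 and 6.50 at E12.5, a rise of 1.81 (SE 0.34, adjusted p = 0.0136; 0.0313 in the averaged fit). Every fetal array was above every embryonic array. With the mean of all its probe sets the rise was 0.90 (adjusted p = 0.0298).

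Of 10 measured myogenic regulators 4 rose, 2 fell and 4 were not called, with the same counts in the averaged fit. Among the MyoD-family genes Myod1 differed by 0.15 (adjusted p = 0.574) and Myf5 by 0.90 (adjusted p = 0.084), both named after their values were seen. Myf6, a late member, rose by 2.42 (adjusted p = 0.000449), or by 1.05 with values under 4 raised to 4. Myog, which drives terminal differentiation, rose by 1.86 (adjusted p = 0.0128) and Mef2a by 1.20 (adjusted p = 0.00104), or by 0.76 with the mean of all probe sets. Pax3, the embryonic progenitor factor gene, fell by 2.56 (adjusted p = 0.0142; 0.0527 without E12.5 replicate C) and Six4 fell by 0.89 (adjusted p = 0.0067).

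Of 12 markers of differentiating muscle 6 rose, none fell and 6 were not called, with the same counts in the averaged fit. The median difference of the list was 1.67. Mymk rose by 2.99, Ckm by 2.80, Myh8, a fetal myosin gene, by 2.55 (adjusted p = 0.00058), Tnnt3 by 1.93, Myog by 1.86 and Actc1 by 1.58. Ckm and Tnnt3 were in the background range at E12.5. Among the 6 not called the difference was 1.76 for Acta1, 0.56 for Tnnc2, 0.55 for Neb, 0.15 for Ttn, -0.46 for Casq2 and -0.73 for Myh3. The mean level of the list ranged from 8.50 to 8.88 at E17.5 and from 6.99 to 7.85 at E12.5. Within the E12.5 group replicate A was lowest both in this list (6.99, against 7.85 and 7.35 in B and C) and for Chrna1, Chrnb1 and Dok7, but highest for Lrp4 and Musk. In a sorted bulk sample, more cells of a type and more RNA per cell cannot be told apart, and the part of differentiating cells in these rises was not tested. Of 13 neuronal markers 2 fell, Elavl4 and Isl1, and neither was called in the averaged fit (adjusted p = 0.085 and 0.112). Isl1 stood at 2.24, 2.33 and 2.66 at E17.5, against 4.57, 6.59 and 3.80 at E12.5, and Elavl4 at 3.18, 3.02 and 3.23 at E17.5, against 5.68, 4.13 and 4.58 at E12.5. Nefm reached 5.07 on E12.5 replicate B, while the cholinergic genes Chat, Slc5a7 and Slc18a3 and the motor neuron gene Mnx1 were at most 2.09 on any array. The mean level of these markers ranged from 2.51 to 2.59 at E17.5 and from 2.86 to 3.26 at E12.5, and their part in the members' values was not tested. Connective tissue markers ranged from 7.75 to 8.89 at E17.5 and from 6.87 to 8.72 at E12.5, with 3 rises and 3 falls among 11 (1 and 1 in the averaged fit). These means hide large opposite changes. Dpt rose by 9.04 (mean 11.14 at E17.5 and 2.10 at E12.5), which ranked 1 by size among all rises. Tnmd rose by 4.38 and Col1a1 by 2.76, while the differences were -3.68 for Pdgfra, -3.21 for Twist2 and -1.95 for Prrx1. The part of these cells in the members' values was not tested. Blood markers ranged from 3.61 to 3.99 at E17.5 and from 4.57 to 5.31 at E12.5 (2 rises and 1 fall among 6, or 1 and 1 in the averaged fit). Hbb-y, which encodes an embryonic globin chain, stood at 4.46, 3.23 and 3.32 at E17.5, against 14.34, 14.89 and 13.02 at E12.5. Its fall ranked 1 by size among all falls (-10.41, adjusted p = 0.000105). Cd68 and Lyz2, genes of macrophages, rose by 2.99 and 1.06 (adjusted p = 0.0128 and 0.108 in the averaged fit). Of the same list, Ptprc (mean 2.51 at E17.5 and 2.53 at E12.5) and Fcgr3 (2.75 and 2.99) were in the background range and not called. The same held for Hba-a1, another globin gene (mean 2.39 at both ages). The log2 of the summed signal of the blood list was 7.10 to 7.53 at E17.5 and 13.03 to 14.89 at E12.5, and its part in the members' values was not tested. Mean levels of endothelial markers ranged from 3.63 to 4.22 at E17.5 and from 3.43 to 4.47 at E12.5 (1 rise among 7). The rise was that of Tek, at 10.18 ± 0.13 at E17.5 and 5.29 ± 0.55 at E12.5 (SD, n = 3 each, difference 4.88, adjusted p = 0.000154). The other 6 were not called.

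The genes whose pattern was most like the fetal receptor were found by Pearson correlation over the 6 arrays with the average of the standardised values of Chrna1, Chrnb1, Chrng and Chrnd. Among 8750 other genes with a mean of at least 6 these were Lman2 (r = 0.999), Glis2 (0.996), Pofut1 (0.994), Crlf2 (0.993) and Cables1 (0.992). They are lower on E12.5 replicate A than on B and C, and higher on all 3 E17.5 arrays. With 6 arrays in 2 ages, of which E17.5 A and B may not be independent, and with Chrnd in the background range, these values describe the arrays only. Because the receptor average itself separates the ages, a difference between ages in these genes followed from how they were picked. The difference was 2.24 for Cables1, which encodes a cyclin-dependent kinase-binding protein, and between 0.42 and 0.77 for the other 4.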

How the data were processed

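Each of 6 one-colour Affymetrix arrays measured RNA of 1 sample of sorted cells, 3 from E17.5 and 3 from E12.5. Per the labels' protocols, limbs were trypsin-digested, GFP-positive cells were sorted, and 100 ng of total RNA was amplified from the 3' end in 2 cycles, so signal near the 3' end counts most. The authors deposited log2 values for every probe set. GCRMA is the method that the submitters' processing notes name (its version is not given in the sources used here). It places probe sets that lack specific signal in a low range, here mostly under 4. For arrays, their number limits the precision.

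Probe sets were named through the supplied platform annotation, with symbols updated by entrez ID to RefSeq (GRCm38.p6). Of 44994 probe sets 34909 had 1 symbol, 931 with several symbols were not used, and 9154 have no name here. The test was limma 3.58.1 (R 4.3.3; eBayes with trend after lmFit) over all 18182 genes, with no filter. The fit was tested on simulated data. Pairs of members were tested by exact permutation (scipy 1.17.1), and figures were drawn with matplotlib 3.10.9. Promoters came from RefSeq.

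The members and lists were chosen with earlier results of these data known. All 10 members are named, and from each list up to 3 called genes per direction with the largest change, or the brightest 2 where none was called. From the marker lists the genes used to describe the cells were chosen after their values were seen. The labels call the replicates biological but do not say which embryos they came from, so p-values measure the spread between these arrays. Alternatives tried were array weights, 2 other eBayes settings, other ways to pick probe sets, filters, a floor at 4, other scalings, a replicate block, a stricter threshold (0.01), averaging E17.5 A and B, and leaving out each array.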

Additional observations from a re-analysis of the deposited data

How the results depend on the processing

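The 5 rises among the 10 members became 3 at a threshold of 0.01 and ranged from 3 to 5 when 1 array was left out (3 without E17.5 replicate A, where Lrp4 and Musk were lost). The 0 falls became 2 with array weights and ranged from 0 to 1 without 1 array (Agrn, without E12.5 replicate A). Chrna1, Chrnb1 and Dok7 passed the test in every fit run. No called member turned its direction, and of 175 refits of single members 163 kept the side of the threshold, 9 lost a call (8 for Lrp4, 1 for Musk) and 3 gained one. Once probe sets with the suffix _s_at or _x_at were left out, the Dok7 difference was 1.45. That probe set was in the background range at E12.5 and on E17.5 replicates B and C. The 15 rises of the synaptic lists were 7 with the replicate block, 6 with E17.5 A and B averaged, 6 at a threshold of 0.01 and 6 to 13 without 1 array. Their 8 falls were 20 with array weights, 5 with the mean of all probe sets, 3 with the replicate block, 4 with E17.5 A and B averaged, 3 at a threshold of 0.01 and 3 to 11 without 1 array. The causes were not tested. The same letters share only a name: deviations of same-lettered arrays correlated at -0.38, 0.25 and -0.07 for A, B and C, and the blocked fit called 4 members higher, without Lrp4. Signal over background limits Chrnd and Chrne, which have no value above 4 on any array.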
